A study of Rattus norvegicus with 4 samples.

Results

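The plasminogen activator system was followed in rat fibroblasts through 4 genes: Plaur, the receptor of urokinase, Plau, urokinase itself, Plat, the tissue-type activator, and Serpine2, protease nexin-1, an inhibitor of both activators. All probe sets with 1 of these symbols as their only annotated gene were taken, which gave 4 probe sets, 1 for each of the 4 genes, of 8740 probe sets and 4736 named genes in all. The set was chosen by pathway, on the measured rise of Plaur in serum and its lower value in Omomer cells on these same arrays, so that the values of the members below are a description and not a test. RNA of Rat1 cells, an established rat fibroblast line, was hybridized to Affymetrix rat genome arrays, with 1 array per condition. The conditions were Rat1-Omomer cells after 90 min of serum, Rat1-control cells after 90 min of serum, Rat1-Omomer cells at 0 min and Rat1-control cells at 0 min. Rat1-Omomer cells were stably infected with a retrovirus that encodes Omomer, a fusion of the Myc dimerization mutant Omomyc with a tamoxifen-inducible part of the estrogen receptor, and Rat1-control cells carried the control retrovirus. They are called Omomer cells and control cells below. All 4 cultures received 4-hydroxytamoxifen (4-OHT), were starved in 0.1% serum for 48 h and were then harvested at 0 min or after 90 min in 10% serum. The labels place 4-OHT throughout starvation and the methods only shortly before serum, so the length of that treatment is not settled. The titles gave the groups, because the vector field contradicts the title for the Rat1-Omomer array at 0 min and the Rat1-control array at 90 min. Whether the infected cells were a pool or a clone is not given in the sources used here, and the level of Omomer was not analysed here.

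Urokinase and the tissue-type activator are serine proteases that cut the inactive plasminogen into plasmin, which degrades fibrin and other matrix proteins. The urokinase receptor, anchored to the outer membrane by a lipid, holds urokinase at the cell surface and also contacts vitronectin and integrins. Serpins such as Serpine2 block the activators, and in fibroblasts the system is known for its part in wound repair, matrix turnover and cell migration.

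The promoters are shown because the values of Plaur and those of the other members differed in direction or size between the arrays. Of the 4 members, 3 matched an entry in the RefSeq promoter table (build GRCr8), and Plat did not. Each window holds the 250 bases before the annotated start, written 5′ to 3′ on the gene's own strand. Capitals mark every match to 1 of the searched motifs. The windows are chr1:89181113-89181362 on the plus strand for Plaur, chr15:3511988-3512237 on the minus strand for Plau and chr9:88637203-88637452 on the minus strand for Serpine2, part of which lies inside the annotated extent of that gene.
Plaur: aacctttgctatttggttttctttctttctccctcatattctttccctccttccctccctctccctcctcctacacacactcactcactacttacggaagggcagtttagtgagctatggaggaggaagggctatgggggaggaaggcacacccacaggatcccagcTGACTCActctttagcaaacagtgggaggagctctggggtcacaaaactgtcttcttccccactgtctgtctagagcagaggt
Plau: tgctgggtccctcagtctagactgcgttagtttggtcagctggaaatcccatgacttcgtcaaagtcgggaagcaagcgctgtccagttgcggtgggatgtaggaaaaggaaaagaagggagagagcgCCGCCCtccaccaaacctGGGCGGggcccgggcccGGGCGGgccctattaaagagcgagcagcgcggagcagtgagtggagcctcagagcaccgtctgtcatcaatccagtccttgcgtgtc
Serpine2: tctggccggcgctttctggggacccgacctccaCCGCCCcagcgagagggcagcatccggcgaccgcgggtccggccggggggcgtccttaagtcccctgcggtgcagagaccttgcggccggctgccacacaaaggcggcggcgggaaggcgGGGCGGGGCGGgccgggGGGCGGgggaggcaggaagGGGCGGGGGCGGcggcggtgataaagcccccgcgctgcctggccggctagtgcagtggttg
The motifs searched, on both strands, were the E-box CACGTG, the AP-1 site TGACTCA or TGAGTCA, the CRE TGACGTCA, the CArG box, the GC box GGGCGG and TATAAA. The Plaur window held 1 match, the AP-1 letters TGACTCA from base 83 to base 77 before the start, and 4.05% of the 33469 windows of this length in the table held such letters. The Plau window held 3 GC boxes and the Serpine2 window 6, of which some share bases, and 30.5% of all windows held at least 1. The E-box, which 5.59% of all windows held, was in none of these 3 windows, nor were the CRE (1.59% of all windows), the CArG box (1.50%) or TATAAA (12.9%). A match to letters is a description of the sequence and not a bound site.

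Values are average differences, the intensity that MAS 4 software gives for a probe set, and can be negative. The floor, below which a value is not told from noise, was 1048, set at 2 times a noise SD of 524. A fold is the ratio of 2 values after values under the floor were raised to it, so that a fold against such a value is a lower bound. With 1 array per condition there is no spread between cultures and no p-value. As a measure of technical spread, the log2 fold differed between probe sets of the same gene with an SD of 0.29 for 90 over 0 min in control cells, 0.69 for 90 over 0 min in Omomer cells, 0.71 for Omomer over control at 90 min and 0.28 at 0 min, over the 302 genes with 2 such probe sets. Both arrays at 90 min had fewer probe sets above the floor, 3365 for Omomer and 3495 for control cells, than the 3714 and 3738 of the Omomer and control arrays at 0 min. The Omomer array at 90 min was low for probe sets of 5 series of expressed sequence tags, 1744 probe sets in all, which hold none of the members: 406 of all probe sets were at least 3-fold lower at 90 than at 0 min in Omomer cells, and 120 of the 6996 outside these series. Of 10 fibroblast markers, 9 were above the floor on all 4 arrays, and their summed value was 533611 and 459893 in Omomer and control cells at 90 min and 389909 and 400673 at 0 min. Of these 9, 7 were higher and 2 lower in Omomer than in control cells at 90 min, the lower ones being Fn1 and Col1a2, a collagen chain read by a probe set of the tag series, with 14174 against 55641 at 90 min (3.93-fold lower), and 50743 and 52387 in Omomer and control cells at 0 min. Sparc, a matrix protein, had 4 probe sets that ran in both directions, from 64750 against 46890 to 1538 against 8233 at 90 min. The brightest probe sets of Sparc and of Thy1 (28528 against 17983) also belong to the tag series, and were higher in Omomer cells at 90 min. The Sparc probe set that read 1538 belongs to the series too. The 4 epithelial and 3 endothelial markers on the array were under the floor everywhere, with summed values of 306 to 683 and of 209 to 1434. Of 3 leukocyte markers, Cd14 was above the floor on all 4 arrays and Itgam on none. Ptprc lay close to the floor, with 1040 and 1097 in Omomer and control cells at 90 min, and 1041 and 1070 at 0 min. The summed value of the 3 markers was 8050 and 5389 in Omomer and control cells at 90 min and 5179 and 4673 at 0 min. The part of these shifts in the values of the members was not tested.

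Plaur was the member that differed most between the conditions. Its probe set (X71898_at) read 2431 in Omomer cells at 90 min, 26308 in control cells at 90 min, 209 in Omomer cells at 0 min and -663 in control cells at 0 min. The single high value was thus that of control cells in serum, and both starved cultures were under the floor. In control cells Plaur was at least 25.1-fold higher at 90 min than at 0 min (log2 4.65), and it was the only member of the 3 with a fold to pass 3-fold, where the share of all probe sets past 3-fold was 0.881% upward and 0.824% downward. These shares include probe sets without a fold. In this comparison 3985 had a fold, of which 77 were at least 3-fold higher and 72 lower. In Omomer cells the value at 90 min was above the floor, also above the 1228 that the noise of this array alone gives, and at least 2.32-fold above that at 0 min (log2 1.21). This bound is under 3-fold and depends on the floor, being at least 4.64-fold with a floor of 1 noise SD and at least 1.16-fold with a floor of 4. None of the 3 members with a fold passed 3-fold in Omomer cells, where the share of all probe sets past 3-fold was 1.40% upward and 4.65% downward (1.64% and 1.72% outside the 5 tag series). Here 4209 of all probe sets had a fold, of which 122 were at least 3-fold higher and 406 lower.

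Set side by side at 90 min, Plaur was 10.8-fold lower in Omomer than in control cells (log2 -3.44), so that it dropped by 90.8% relative to control cells. That log2 fold is 4.8 times the SD between probe sets of the same gene in this comparison. The SD comes from genes above the floor on every array, which Plaur is not. Among the 2812 probe sets that exceeded the floor on both arrays at 90 min, the log2 fold of Plaur was the 7th lowest. Plaur was chosen on this difference, so the multiple and the rank describe it and are no support for it. Here too 1 of 3 members with a fold passed 3-fold, where the share of all probe sets past 3-fold was 1.03% upward and 3.97% downward (1.16% and 1.49% outside the 5 tag series). In this comparison 4048 of all probe sets had a fold, of which 90 were at least 3-fold higher and 347 lower. The fold lay between 9.86-fold lower after quantile normalization and 11.2-fold lower after scaling each array by the median of its values at or above the floor. The array carries 1 probe set for Plaur, so no other probe set of the gene can be set beside it, and on these bulk arrays fewer cells that express a gene and less RNA in each cell cannot be told apart. In the annotation of GRCr8, Plaur lies at chr1:89181363-89196308.

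**Figure D1:**
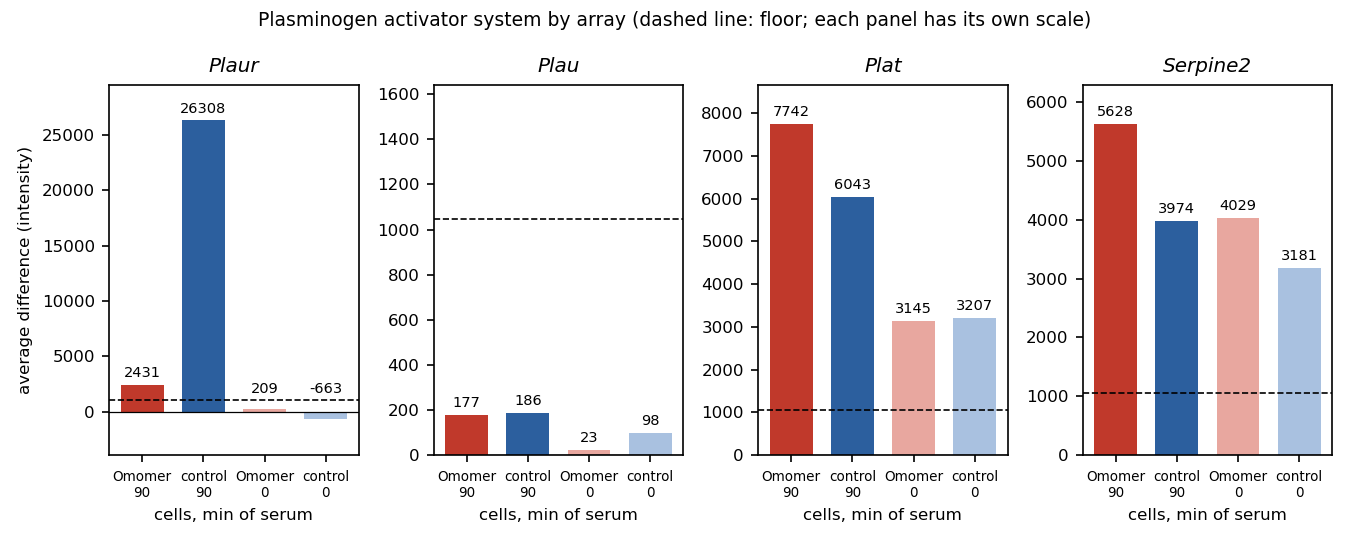
Average difference (intensity, linear axis starting at 0 or below) of the 4 members on each of the 4 arrays, 1 bar per array with its value printed above it and no error bar, since each condition has 1 array. Plaur is high only on the control array at 90 min (26308), Plau stays under the dashed floor of 1048 on all 4 arrays, and Plat and Serpine2 are above it on all 4.

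The activators themselves did not share that pattern. Plau (X63434_at), the ligand of the receptor, read 177 and 186 in Omomer and control cells at 90 min, and 23 and 98 at 0 min. All 4 values are under the floor, so that no fold can be given and no change of urokinase mRNA was detectable with this probe set. The gene lies at chr15:3505485-3511987.

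Plat (M23697_at), at chr16:75943061-76022037, read 7742 in Omomer cells and 6043 in control cells at 90 min, against 3145 and 3207 at 0 min. The 2 arrays with serum were the higher ones, in both cell lines. The fold of 90 over 0 min was 2.46 in Omomer cells (log2 1.30, 1.9 times the SD between probe sets of the same gene) and 1.88 in control cells (log2 0.91, 3.1 times that SD). Neither reached 3-fold. Between the cell lines Plat differed less, 1.28-fold higher in Omomer cells at 90 min (log2 0.36, 0.5 times the SD) and 1.02-fold lower at 0 min (log2 -0.03). At 90 min the median log2 fold over probe sets that exceeded the floor on both arrays was 0.32.

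Serpine2 (A03913cds_s_at), at chr9:88573138-88637252, was the most even of the members above the floor. It read 5628 and 3974 in Omomer and control cells at 90 min, and 4029 and 3181 at 0 min. Its folds of 90 over 0 min were 1.40 in Omomer cells (log2 0.48) and 1.25 in control cells (log2 0.32), and those of Omomer over control cells 1.42 at 90 min (log2 0.50) and 1.27 at 0 min (log2 0.34). The Omomer value was the higher of each pair, by 0.7 and 1.2 times the SD between probe sets of the same gene at 90 and 0 min. Over probe sets that exceeded the floor on both arrays, the median log2 fold of Omomer over control was 0.32 at 90 min and 0.01 at 0 min.

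As a ratio of the serum folds, Omomer over control, the values were 0.0924 for Plaur, 1.31 for Plat and 1.12 for Serpine2. The ratio for Plaur rests on values at the floor in both starved cultures, and no test of these ratios can be had. Over probe sets that exceeded the floor on both arrays, the median log2 serum fold was 0.23 in Omomer cells and -0.05 in control cells. Of the 77 probe sets at least 3-fold higher in serum in control cells, Plaur among them, 72 had a fold in Omomer cells and 30 were at least 3-fold higher there too.

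**Figure D2:**
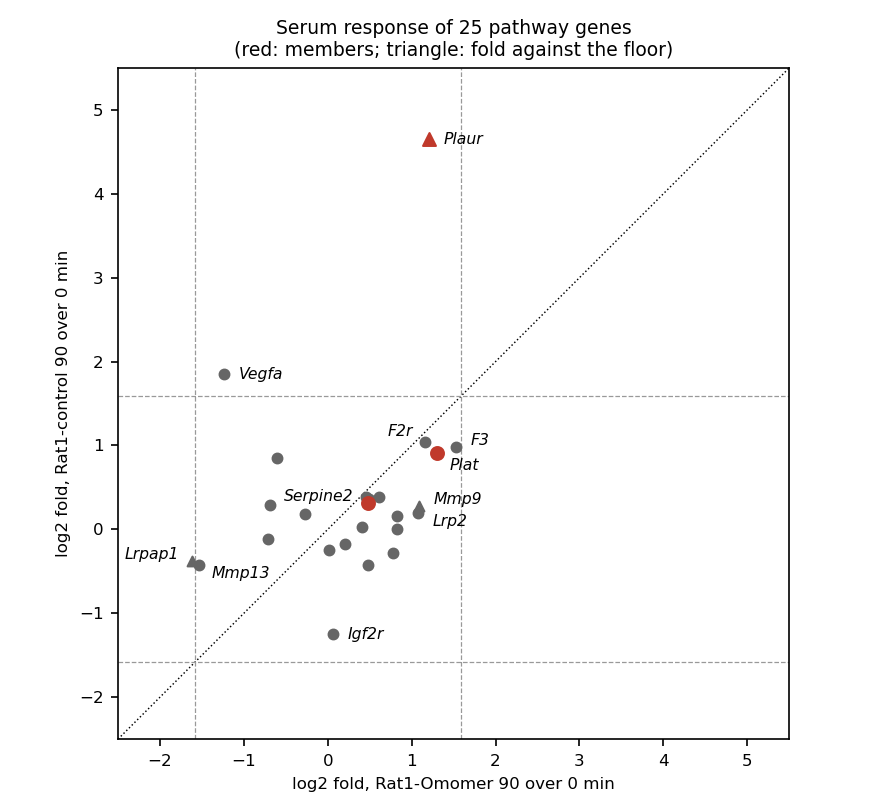
Log2 fold of 90 over 0 min in Omomer cells (horizontal axis) and in control cells (vertical axis) for the 25 pathway genes with a fold in both, 1 point per gene, with members in red, triangles for folds against the floor, dashed lines at 3-fold and a dotted line of equal folds. Plat lies at 1.30 and 0.91 and Serpine2 at 0.48 and 0.32 near the line of equal folds, Plaur at 1.21 and 4.65 far above it, and Vegfa at -1.24 and 1.85.

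None of the members reached 3-fold between starved Omomer and control cells, at 0 min, where the share of all probe sets past 3-fold was 0.114% upward and 0.229% downward. Plaur and Plau were under the floor in both lines, and Plat and Serpine2 differed by the 1.02-fold and 1.27-fold given above.

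The wider pathway was read through 50 further genes, listed by role, of which 39 were on the array, each by its brightest probe set. In control cells 23 of them had a fold of 90 over 0 min, of which 1 (Vegfa) was at least 3-fold higher and none lower, with a median log2 fold of 0.16, against -0.07 over all probe sets. In Omomer cells 27 had a fold, of which none was at least 3-fold higher and 1 (Lrpap1) lower, with a median of 0.41, against 0.09 over all. Between Omomer and control cells, 27 had a fold at 90 min, none at least 3-fold higher and 1 (Vegfa) lower, with a median of 0.28, against 0.18 over all. Over the brightest probe sets of all named genes the medians were -0.09, 0.07 and 0.18 in these 3 comparisons, and over probe sets that exceeded the floor on both arrays -0.05, 0.23 and 0.32, so that the 0.28 of the pathway is not above every one of them. At 0 min 24 had a fold and none reached 3-fold, with a median of -0.04, against 0.01 over all. Of all probe sets with a fold, 77 of 3985 were at least 3-fold higher with serum in control cells and 72 lower. In Omomer cells 122 of 4209 were higher and 406 lower. Between the cell lines 90 of 4048 were higher and 347 lower at 90 min, and 10 of 3977 and 20 at 0 min. These counts include the tag series.

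Among the receptors, the brightest probe set was that of Anxa2, annexin A2, a surface protein that binds plasminogen. It read 69029 and 58568 in Omomer and control cells at 90 min, and 45317 and 44773 at 0 min. Its folds in the 4 comparisons were 1.52 or less, and after quantile normalization the log2 fold of 90 over 0 min in Omomer cells turned to -0.09 (0.61 without it) and that of Omomer over control cells at 90 min to -0.18 (0.24 without it). Igf2r, a sorting receptor that also binds the urokinase receptor, read 13143 and 6501 in Omomer and control cells at 90 min, and 12585 and 15512 at 0 min. The control value in serum was the low one, and Igf2r was 2.02-fold higher in Omomer cells at 90 min. Lrpap1 encodes the chaperone of the LRP receptors, and its brightest probe set read 848 and 2550 in Omomer and control cells at 90 min, and 3222 and 3308 at 0 min. That was at least 3.07-fold lower at 90 than at 0 min in Omomer cells, but its 3 other probe sets read 2264, 810 and 1194 in Omomer cells at 90 min, against 2262, 1355 and 1293 at 0 min, so that the call rests on 1 probe set.

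Of the zymogens and the less common activators and inhibitors, Plg (plasminogen), Klkb1 (plasma kallikrein), Hpn (hepsin), Serpina5 (protein C inhibitor) and Serpinb2 (PAI-2) were under the floor on all 4 arrays. The plasmin inhibitor A2m was above it by its brightest probe set, with 3812 and 2198 in Omomer and control cells at 90 min, and 2219 and 2674 at 0 min. Another of its 6 probe sets read 2919 and 2308 at 90 min, and 1950 and 2380 at 0 min. The rest were under the floor on all 4 arrays. Of the matrix and integrin partners, Fn1 (fibronectin) read 39902 and 81542 in Omomer and control cells at 90 min, and 64576 and 66614 at 0 min, while another of its probe sets, with 19339 and 11762 at 90 min, ran the other way. Itgb1, the beta 1 integrin chain, was 2.24-fold lower in Omomer cells at 90 min, with 20472 against 45780.

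Among the substrates and effectors, Vegfa passed 3-fold. It encodes a vascular growth factor that plasmin can cut. Its brightest probe set, which belongs to the tag series, read 1082 and 10454 in Omomer and control cells at 90 min, and 2552 and 2909 at 0 min, which is 9.66-fold lower in Omomer cells at 90 min. A probe set outside the series read 866 and 6333 at 90 min, and 630 and 1099 at 0 min, at least 6.04-fold lower in Omomer cells at 90 min. With a floor of 4 noise SD these folds were at least 4.99 and 3.02. The other probe sets were short of 3-fold there, with 1146 against 3188 (2.78-fold lower) and -2518 against 1535 at 90 min (at least 1.46-fold lower). On all 4, the control array in serum was the high one. F2r, the thrombin receptor, read 18166 and 14863 in Omomer and control cells at 90 min, and 8138 and 7244 at 0 min, 2.23-fold and 2.05-fold higher at 90 than at 0 min. F3, tissue factor, read 18013 and 14844 at 90 min, and 6233 and 7540 at 0 min, 2.89-fold and 1.97-fold higher. The collagenase Mmp13 was lower with serum in Omomer cells, 2.90-fold and, after quantile normalization, 3.13-fold, with 8948 and 19741 in Omomer and control cells at 90 min, and 25943 and 26672 at 0 min. The brightest of this role was Timp2, a metalloprotease inhibitor, with 98147 and 66532 at 90 min, and 55254 and 59628 at 0 min, though its log2 fold of 90 over 0 min in Omomer cells was 0.83 as deposited and -0.02 after quantile normalization, and in control cells 0.16 and -0.12.

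**Figure D3:**
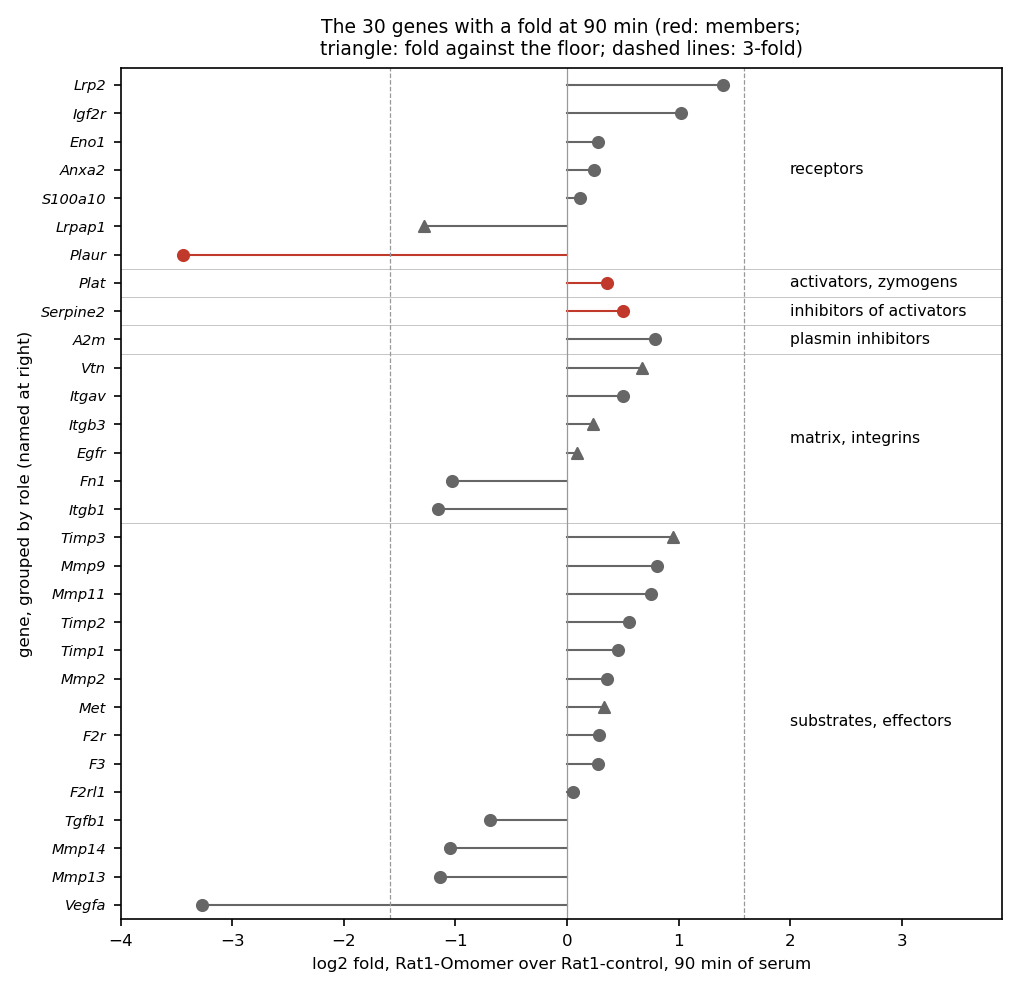
Log2 fold of Omomer over control cells at 90 min for the 30 pathway genes with a fold, 1 line per gene grouped by role, with members in red, triangles for folds against the floor and dashed lines at 3-fold. Plaur (-3.44) and Vegfa (-3.27) lie beyond 3-fold, while Plat (0.36) and Serpine2 (0.50) lie nearer to 0.

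Genes nearest to each member in pattern were ranked by the root mean square difference of the 4 log2 values, each gene centred on its own mean over the 4 arrays. For Plaur the floored values of 2058 probe sets, those whose highest value reached 3 times the floor, were compared, and Fosl1, a Fos-related transcription factor subunit, came first at a distance of 0.49. It read 1423 and 11973 in Omomer and control cells at 90 min, and -529 and -178 at 0 min, 8.41-fold lower in Omomer cells at 90 min. Tagln, the actin-binding protein transgelin, followed at 0.52, with 2350 and 44854 at 90 min, and 2744 and 1998 at 0 min, which is 19.1-fold lower in Omomer cells at 90 min. Its brighter probe set was 5.10-fold lower there. That probe set was 6.94-fold higher at 90 than at 0 min in Omomer cells, where the ranked one was 1.17-fold lower. Flnc, filamin C, was at 0.60, 3.85-fold lower in Omomer cells at 90 min by this probe set and 2.02-fold by its brighter one. With serum in Omomer cells, Flnc was 2.64-fold higher by the ranked probe set and 4.22-fold by the brighter one. Both probe sets of Flnc belong to the tag series that were low on the Omomer array at 90 min. The part of that in the values of Flnc was not tested. In all 3 genes the control array in serum was the highest of the 4. That follows from their choice by likeness to Plaur and is no separate result.

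**Figure D4:**
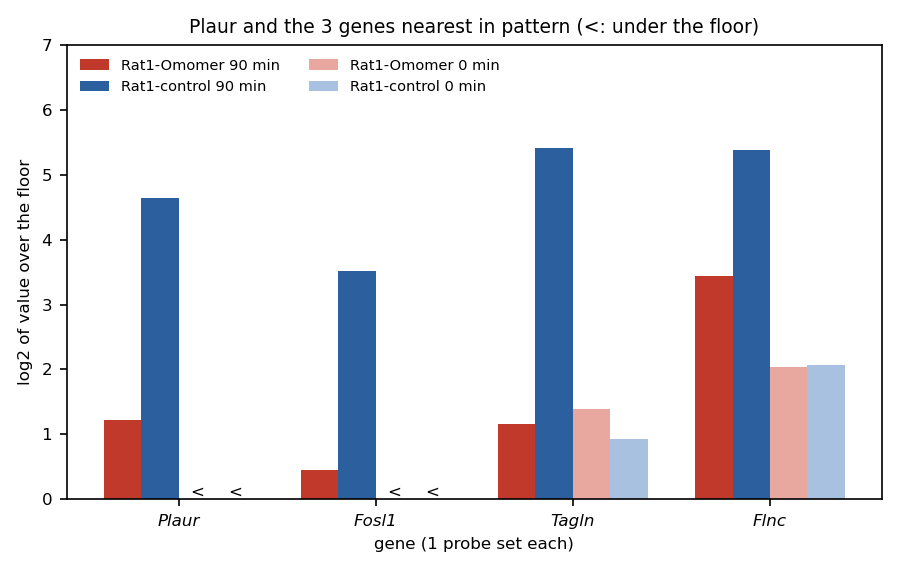
Log2 of the value over the floor on each of the 4 arrays for Plaur and the 3 genes nearest to it in pattern, 1 bar per array and 1 probe set per gene, with < for values under the floor and no error bars. In each gene the control bar at 90 min is the tallest, from 11973 for Fosl1 to 44854 for Tagln, and the Omomer bar at 90 min is lower. The 3 genes were chosen for this likeness.

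For Plat, among 1447 probe sets that exceeded the floor on all arrays and averaged 3 times the floor or more, the nearest were F2r (0.07), the translation factor Eif5 (0.07) and Cav1, caveolin-1 (0.08), which read 47314 and 36555 in Omomer and control cells at 90 min, and 21407 and 19010 at 0 min. A second probe set of Eif5 differed, being at least 3.49-fold higher in Omomer cells at 90 min. For Serpine2 they were Dlat (0.04), a pyruvate dehydrogenase subunit, the chaperone Dnaja2 (0.04) and the guanylate cyclase Gucy2e (0.05), and another probe set of Dlat was 1.35-fold lower in Omomer cells at 90 min where the first was 1.37-fold higher. Each distance rests on 4 arrays only, and Plau, under the floor throughout, has no such neighbours.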

How the data were processed

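Total RNA of 4 Rat1 cultures was hybridized to 4 Affymetrix rat genome arrays, 1 per condition. The authors deposited intensity values, the average difference computed with MAS 4 at default settings, linear and not cleared of negative values. The array trimmed means lay between 2503 and 2505, and precision is limited by the number of arrays. The annotation build of the probe sets is not given in the sources used here.

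Of 8799 probe sets, 59 control probe sets (AFFX) were left out. Of the other 8740, the platform annotation gave 1 symbol to 7006, several to 308 and none to 1426. One further gene of the pathway is not reported here. The noise SD (524) came from the spread of the negative values of all arrays, and the floor was 2 times it. Folds are ratios of floored values, called at 3-fold, with both values under the floor giving no fold. No test was run. Groups were taken from the sample titles.

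The members, the gene lists and the comparisons were chosen with earlier results of these data known. The text names all probe sets of the members, every listed gene at least 3-fold different in a comparison, the brightest probe set of each role and, for each member above the floor on all arrays, the 3 genes nearest in pattern. The same ranking for Plaur on floored values, and F2r, F3, Igf2r, Itgb1, Fn1, Mmp13 and genes under the floor, were added after their values were seen. Alternatives were other floors, median scaling, quantile normalization, a restriction to probe sets exceeding the floor on both arrays and, chosen after seeing the data, leaving out 5 tag series. Median scaling used the median of the values at or above the floor on each array. Promoters came from RefSeq (GRCr8). Scripts ran in Python 3.11.15 with numpy 2.4.6, pandas 2.3.3 and matplotlib 3.10.9, and the fold rule was tested on simulated data. The simulation took its additive noise from these data, used a proportional noise set in advance and placed changes in bright probe sets only. It did not model the wider spread in comparisons with the Omomer array at 90 min (SD 0.69 and 0.71). The simulation therefore does not show how the rule works near the floor or in those comparisons.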

Additional observations from a re-analysis of the deposited data

Results flagged for a closer look

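Vegfa was singled out because the serum fold of 1 of its 4 probe sets ran in opposite directions in the cell lines, by over the spread between probe sets in each. By that probe set, the brightest, the log2 fold of 90 over 0 min was -1.24 in Omomer cells and 1.85 in control cells, and with a floor of 4 noise SD the fold in Omomer cells was -0.28. The difference was not tested, since each condition has 1 array. This probe set belongs to the tag series that are low on the Omomer array at 90 min, and the part of that in its value was not tested. A probe set of Vegfa outside the series was under the floor on both Omomer arrays and 5.76-fold higher at 90 than at 0 min in control cells. Another outside the series ran upward in both, with log2 folds of 0.13 in Omomer and 1.60 in control cells, both bounds.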

How the results depend on the processing

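No paired analysis was possible because each condition has 1 array. Among the folds of the members, all 55 values under the alternatives kept their direction and all but 1 their side of 3-fold. The exception was the serum fold of Plaur in Omomer cells, a bound set by the floor (log2 1.21), which was 2.21 with a floor of 1 noise SD. With a floor of 4 it stayed under 3-fold but moved to 0.21. The serum fold of Plaur in control cells lay between at least 12.5-fold and at least 50.2-fold. No fold changed direction among the calls at 3-fold. Median scaling and quantile normalization moved the median log2 fold of all probe sets by at most 0.06.

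Counts of probe sets at least 3-fold different over all 8740 depended on the floor, higher and lower counted apart. With a floor of 1 noise SD, 156 were lower in serum in control cells (72 with the floor used), 203 higher and 676 lower in serum in Omomer cells (122 and 406), 164 higher and 560 lower in Omomer than in control cells at 90 min (90 and 347), and 25 and 55 at 0 min (10 and 20). With a floor of 4 noise SD the counts were 49 and 32, 76 and 192, 47 and 183, and 4 and 12 in the same order of comparisons, where the count used for the first was 77 higher. Among probe sets that exceeded the floor on both arrays they were 48 and 42, 80 and 190, 59 and 187, and at 0 min 4 higher. Without the 5 tag series, 120 were lower in serum in Omomer cells and 104 lower in Omomer than in control cells at 90 min. The at least 3.07-fold lower value of Lrpap1 came under 3-fold with a floor of 4 noise SD, a floor for each array and quantile normalization (log2 -0.62, -1.39 and -1.54), and that of 1 Vegfa probe set in control cells (log2 1.60) with the first and the second of these (0.60 and 1.55). Among the other genes named by rule or added, 11 further values moved by over the spread between probe sets, of which those of Anxa2 and Timp2 in Omomer cells turned below 0 after quantile normalization.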
